A study of Mus musculus with 6 samples.

Results

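The autophagy and lysosome genes described here are 33 genes taken by symbol, through GENCODE M21 (mm10), from a table of read counts for 48709 Ensembl genes. All 33 were found, and all 33 passed the filter on low counts that left 16699 genes for testing. The counts come from RNA sequencing of whole cerebellum of C57BL/6J mice aged 40 weeks, with 3 wild-type samples and 3 samples from mice labelled SCA7 140Q/5Q knock-in. In the column names the knock-in samples are called Kihet. The 2 numbers of that genotype give the glutamines encoded by the long and the short Atxn7 allele, and an expanded repeat in this gene causes spinocerebellar ataxia type 7. The labels name no other allele, no treatment, no sex and no pooling of animals, and they do not state that the samples of a group are separate animals, so the p-values reflect only how far these samples spread, which may be technical.

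Macroautophagy encloses a portion of cytoplasm in a double membrane, the autophagosome, and delivers it to the lysosome, where acid hydrolases break the cargo down. The Ulk kinase complex starts the process, a lipid kinase built around Vps34 and Beclin marks the site, and a ubiquitin-like conjugation system attaches proteins of the Atg8 family to the membrane, where cargo receptors such as p62 bind them. Neurons depend on this route to clear aggregated proteins, and the transcription factor TFEB raises the expression of lysosomal and autophagy genes when it enters the nucleus. Transcript levels do not measure the flow of cargo through the pathway.

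Each library held between 34630391 and 49127673 counts. The 33 genes took 0.472%, 0.467% and 0.488% of all counts in wild-type replicates 1, 2 and 3 and a higher share in each knock-in library, at 0.523%, 0.492% and 0.534%. These shares are not scaled, and the TMM factors, by which library sizes were multiplied before fitting, were also higher in each knock-in library, at 1.001 to 1.04 against 0.951 to 0.994. Cerebellar markers were high in every library, with Cbln3, a synaptic organizer of granule neurons, at 1199 to 1836 CPM (counts scaled to the TMM-adjusted library size). Of 6 such markers 2 were called lower in knock-in, Cbln3 among them. Markers of brainstem neurons summed to 16.0 to 22.7 CPM in wild type and to 75.9, 15.4 and 50.7 CPM in knock-in replicates 1, 2 and 3. Th gave most of each wild-type sum, at 13.4 to 15.4 CPM, and had 16.0, 7.36 and 14.8 CPM in these knock-in replicates. Its log2 fold change was -0.19, while the other 5 tested markers had log2 fold changes above 0. Of that list 3 of 9 genes were too low to test, 1 of the other 6 was called, and 2 of them, Slc6a4 and Dbh, had no count in wild-type replicate 3. Choroid plexus markers summed to 505.0 to 1898 CPM in wild type and 25.7 to 1311 CPM in knock-in. Wild-type replicate 1 stood apart in base composition: relative to the mean of all libraries, Spearman rho between gene level and GC content was -0.56 there, while the other wild-type samples had 0.06 and 0.03 and the knock-in samples 0.00, 0.24 and 0.32. In whole cerebellum, fewer cells of a type and less RNA per cell cannot be told apart.

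TFEB and its relatives bind the palindrome CACGTG, most strongly when it is extended to TCACGTGA, and the promoters of several members show how dense such letters can be next to lysosomal genes. RefSeq promoters (build GRCm38.p6, 250 bases before to 50 after the start site) matched 27 of the 33 genes by symbol. Those not matched were Npc1, Atg16l1, Map1lc3a, Atg12, Becn1 and Pik3c3. In 9 of these 27 (33.3%) at least 1 promoter held CACGTG, against 11.1% of the tested genes with a promoter and 8.09% of all genes with one. Both motifs read the same on either strand, and each TCACGTGA contains a CACGTG. The longer motif was found in Ctsa, Mcoln1 and Atg3, 11.1% of the 27, against 1.96% of tested genes. Upstream stretches of 4 of the promoters are shown as examples. They carry the motif outside the annotated exons of their own gene. They lie at chr8:13159081-13159160 for Lamp1, chr8:3500397-3500456 for Mcoln1, chr11:119267803-119267862 for Gaa and chr16:45158719-45158778 for Atg3, all on the plus strand, written 5′ to 3′ with CACGTG in capitals.
Lamp1: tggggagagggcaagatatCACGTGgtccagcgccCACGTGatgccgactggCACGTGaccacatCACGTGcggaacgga
Mcoln1: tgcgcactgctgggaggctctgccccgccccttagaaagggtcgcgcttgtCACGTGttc
Gaa: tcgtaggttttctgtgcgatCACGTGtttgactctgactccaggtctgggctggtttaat
Atg3: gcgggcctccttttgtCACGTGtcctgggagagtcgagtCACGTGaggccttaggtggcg

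The 4 copies in the Lamp1 stretch begin 61, 45, 28 and 15 bases before the start site, the copy of Gaa 140 bases before it, and those of Atg3 94 and 71 bases before it. Mcoln1 has a further copy 45 bases before its start site, beyond the stretch shown. The other genes of the 9 were Atg5, Atg7, Atg14, Ctsa and Ctsl. A match of letters is a description of the promoter and does not show a bound factor.

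Levels per kilobase of exon spread over a wide range between members, while most differed little between libraries. The values are RPKM, CPM divided by the union of all annotated exons in kilobases, so a gene with long annotated ends that cerebellum does not use is placed too low. Gabarapl1, an Atg8 protein of the GABARAP branch, was the highest at 243 RPKM in the mean of 6 libraries (225 to 269), and Lamp1, the main glycoprotein of the lysosomal membrane, followed at 231 RPKM (223 to 237). Both stood above Gabarapl2 at 128 RPKM, whose range of 119 to 141 overlapped neither. Sqstm1 (128 RPKM), Map1lc3a (121) and Gabarap (99.4) came next, and their neighbours in this order overlapped. A gap then followed, with Gaa at 49.1 RPKM, Map1lc3b at 47.4 and Nbr1 at 39.8.

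At the lower end stood Atg16l1 at 5.70, Atg7 at 4.53 and Tfeb at 2.39 RPKM, each with a range that overlapped no neighbour. Tfeb, the transcription factor of the group, thus had 0.984% of the level of Gabarapl1. Of the 32 neighbouring pairs in the whole order, 20 had overlapping ranges over the 6 libraries. Among all genes tested, the median member stood at the 84.8th percentile of abundance on the log2 CPM scale and Tfeb at the 43.0th. Every member had at least 414 counts in every library.

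**Figure D1:**
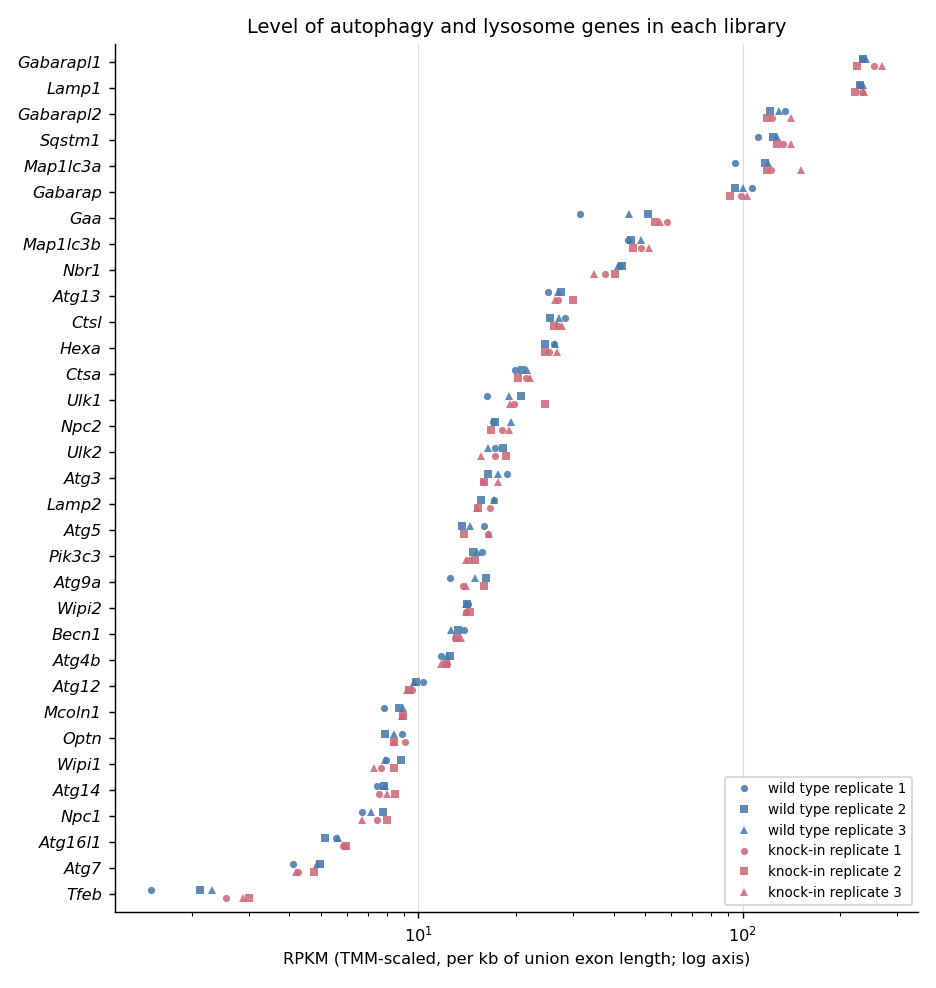
RPKM of the 33 genes (log axis) in each of the 3 wild-type (blue) and 3 knock-in (red) libraries, ordered by the mean, with 1 symbol shape per replicate number. Gabarapl1 and Lamp1 lead at 243 and 231 RPKM and Tfeb is lowest at 2.39 RPKM, and the colours overlap in most rows.

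Setting knock-in beside wild type asks whether transcripts of this clearance pathway differ with the expanded allele. None of the 33 genes was called by edgeR's quasi-likelihood test at an adjusted p at or under 0.05, while 318 of all 16699 tested genes were (1.90%), 213 lower (1.28%) and 105 higher (0.629%). With scaling by library size alone that split was 190 lower and 323 higher, and again no member was called. At an unadjusted p under 0.05 there were 2 members, Tfeb and Gaa, against 18.1% of all genes. DESeq2 called 1 member, Tfeb, and 934 of all genes (5.59%). With limma-voom these counts were 0 and 278 (1.66%).

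The fitted differences were small and took both signs. The log2 fold change was above 0 in 17 members and below 0 in 16, with a median of 0.00 beside 0.01 over all genes tested. With scaling by library size alone both medians were 0.08, so the signs of small differences depend on the scaling. The size of the log2 fold change was under 0.1 in 25 of 33 members beside 36.9% of all genes. Many tested genes are far less abundant than these members, so the shares are given side by side without a comparison. The standard error had a median of 0.081 on the log2 scale. The 95% interval lay within 1.5-fold in either direction for 31 of the 33 genes and within 2-fold for all 33, against 65.3% and 85.2% of all genes. The 2 genes whose intervals reached past 1.5-fold were again Tfeb and Gaa. In 5 members (15.2%) the groups did not overlap in CPM, Tfeb, Gaa and Atg16l1 with knock-in above and Nbr1 and Atg12 with knock-in below, against 23.8% of all genes.

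**Figure D2:**
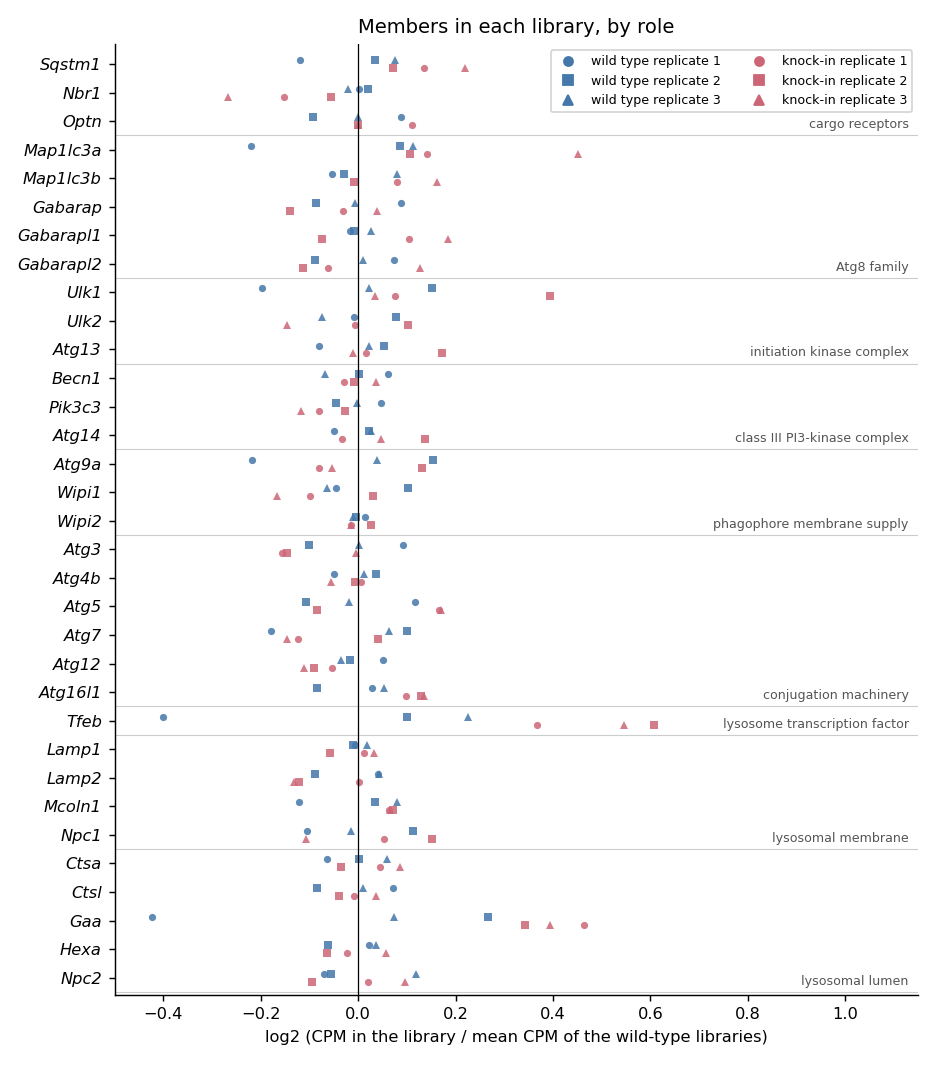
Level of each gene in each library as log2 of its CPM over the mean CPM of the wild-type libraries, grouped by role, with wild type in blue and knock-in in red and 1 symbol shape per replicate number. Tfeb and Gaa have the widest spread, and in both wild-type replicate 1 lies far to the left of the other libraries.

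Cargo receptors link ubiquitinated or otherwise tagged cargo to Atg8 proteins. Sqstm1 encodes p62, which is itself consumed by autophagy (chromosome 11, 50199366 to 50210827). It had 374.7, 416.7 and 429.0 CPM in the wild-type libraries, against 447.0, 427.3 and 473.9 CPM in those of the knock-in, where only the lowest knock-in value lay below the highest wild-type one. This amounted to a log2 fold change of 0.14 ± 0.08 (SE, 3 samples a group; edgeR adjusted p 0.38). It was 0.08 without wild-type replicate 1. It was also 0.08 with the brainstem markers in the model or a trend for GC content and exon length taken out per library. Over all 16 alternatives it ran from 0.08 to 0.22. Nbr1, a p62-like receptor (chromosome 11, 101552149 to 101581951), went the other way, with 288.2, 291.9 and 283.7 CPM in the wild-type libraries, against 259.0, 277.0 and 239.4 CPM in those of the knock-in. These groups did not overlap, and the log2 fold change of -0.16 ± 0.08 was the lowest of all members (edgeR adjusted p 0.32). For Nbr1 it was -0.09 with the brainstem markers in the model or the GC and length trend taken out. Over all 16 alternatives it ran from -0.21 to -0.08, the latter with scaling by library size alone. Optn, the receptor optineurin with roles in mitophagy, lay between 29.5 and 34.0 CPM in all libraries, at a log2 fold change of 0.04 ± 0.09.

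Atg8 proteins are joined to lipid in the autophagosome membrane and form an LC3 branch (Map1lc3a, Map1lc3b) and a GABARAP branch (Gabarap, Gabarapl1, Gabarapl2). Map1lc3a (chromosome 2, 155276297 to 155278073) had 112.3, 138.7 and 141.3 CPM in the wild-type libraries, against 144.2, 140.9 and 178.7 CPM in those of the knock-in. Its lowest value was wild-type replicate 1 and its highest knock-in replicate 3, and the other 4 libraries lay between 138.7 and 144.2 CPM. Its fitted log2 fold change was 0.24 ± 0.12 (edgeR adjusted p 0.31). With a trend for GC content and exon length taken out of each library, the sign turned, to -0.12 ± 0.06 (edgeR adjusted p 0.27).

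Map1lc3b, the isoform most used as an autophagosome marker, lay at 333.4 to 365.7 CPM in wild type and 344.1 to 387.2 CPM in knock-in. Gabarapl1 had 471.1, 473.4 and 485.0 CPM in the wild-type libraries, against 512.6, 452.9 and 541.8 CPM in those of the knock-in, so the knock-in libraries lay on both sides of the wild-type ones. Gabarap and Gabarapl2 had log2 fold changes of -0.04 and -0.01. Adjusted p-values of these 4 genes in edgeR were between 0.63 and 0.96.

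As shares of the family, Gabarapl1 made up 38.0% ± 0.310 of the summed RPKM in wild type and 38.1% ± 1.05 in knock-in (SD, n = 3 each), while Map1lc3b made up 7.39% ± 0.208 and 7.44% ± 0.225. These shares depend on annotated exon length, which is 7517 bases for Map1lc3b and 1181 for Map1lc3a. In CPM, Map1lc3b had a wild-type mean of 346.2 and Map1lc3a one of 130.8. Map1lc3a had 15.4%, 19.1% and 18.7% in the wild-type libraries, against 18.9%, 19.9% and 21.1% in those of the knock-in, with means of 17.8% and 19.9% and the lowest share in wild-type replicate 1. Gabarapl2 has 6 processed pseudogenes that are at least 90.8% identical over 314 to 353 bases, up to 99.4% in Gm3724. Together they had few counts, at most 9 over all libraries for any of them beside 72265 for Gabarapl2. How reads that fit both were treated is not given in the sources used here, which leaves the level of Gabarapl2 uncertain.

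The initiation complex joins the kinases Ulk1 and Ulk2 to the adaptor Atg13. Ulk1 (chromosome 5, 110784488 to 110810097) had 105.7, 134.7 and 123.2 CPM in the wild-type libraries, against 127.7, 159.3 and 124.1 CPM in those of the knock-in, with wild-type replicate 1 the lowest and knock-in replicate 2 the highest. A log2 fold change of 0.18 ± 0.12 was fitted (edgeR adjusted p 0.46). Without wild-type replicate 1 it was 0.08, without knock-in replicate 2 it was 0.05, and with the GC and length trend taken out it was 0.03. With the brainstem markers in the model it was 0.32, and over all 16 alternatives it ran from 0.03 to 0.32. Ulk2 and Atg13 lay at 93.4 to 111.0 and 109.8 to 130.8 CPM over the 6 libraries, with log2 fold changes of -0.01 and 0.06.

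The class III lipid kinase Pik3c3 (Vps34), its regulator Becn1 (Beclin 1) and Atg14, the subunit that directs the complex to autophagy, differed little between the groups. Becn1 had 97.5, 93.5 and 89.1 CPM in the wild-type libraries, against 91.5, 92.8 and 95.8 CPM in those of the knock-in, with means of 93.3 in both groups and a log2 fold change of 0.00 ± 0.07. Its 95% interval ran from -0.16 to 0.16. On the opposite strand, Cntd1 covers 43.9% of its exon bases and had 0.508% as many counts. Whether reads were counted by strand is not given in the sources used here. The low count of Cntd1 therefore does not settle the level of Becn1, which is uncertain. Pik3c3 and Atg14 had log2 fold changes of -0.07 ± 0.07 and 0.05 ± 0.08.

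Atg9a, the membrane protein of the vesicles that seed autophagosomes, had 72.1, 93.2 and 86.1 CPM in the wild-type libraries, against 79.2, 91.8 and 80.8 CPM in those of the knock-in, again with wild-type replicate 1 lowest. Its log2 fold change was 0.00 ± 0.11. Gm29253 on the same strand covers 31.8% of the exon bases of Atg9a and had 0 counts. How reads in shared bases were treated is not given in the sources used here, which leaves the level of Atg9a uncertain. The lipid-binding scaffolds Wipi1 and Wipi2 had log2 fold changes of -0.08 and 0.00, and Wipi2 stayed within 147.4 to 151.9 CPM in all 6 libraries.

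The conjugation system consists of the protease Atg4b, which trims Atg8 proteins, the activating enzyme Atg7, the E2-like enzyme Atg3, and the complex of Atg12, Atg5 and Atg16l1, which places the Atg8 protein on the membrane. Atg16l1 (chromosome 1, 87755870 to 87792428) had 53.6, 49.5 and 54.6 CPM in the wild-type libraries, against 56.2, 57.5 and 57.7 CPM in those of the knock-in. All knock-in values lay above all wild-type values. Its log2 fold change was 0.12 ± 0.08 (edgeR adjusted p 0.44), and 0.23 with the GC and length trend taken out. Atg12, the ubiquitin-like partner of Atg5, had 79.4, 75.7 and 74.8 CPM in the wild-type libraries, against 73.8, 71.9 and 70.9 CPM in those of the knock-in, also without overlap, at -0.09 ± 0.07 (edgeR adjusted p 0.57). With the same trend taken out its log2 fold change was 0.00.

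Atg5 and Atg16l1, which work in 1 complex with Atg12, were thus placed on the other side of 0 from it, and none of the 3 was called. Atg3, Atg4b, Atg5 and Atg7 had log2 fold changes of -0.10, -0.02, 0.09 and -0.07, with edgeR adjusted p-values between 0.57 and 0.92. For all 6 conjugation genes the 95% interval lay within 1.5-fold.

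Tfeb encodes the transcription factor of lysosome formation (chromosome 17, 47737030 to 47792419, plus strand). It had 8.48, 12.0 and 13.1 CPM in the wild-type libraries, against 14.4, 17.05 and 16.3 CPM in those of the knock-in. All knock-in values lay above all wild-type values, and wild-type replicate 1 lay well below the other wild-type samples. The mean was 11.2 ± 2.41 CPM in wild type and 15.9 ± 1.36 CPM in knock-in (SD, n = 3 each). The log2 fold change was 0.51 ± 0.16, a 1.43-fold higher fitted level with a 95% interval of 1.12 to 1.81-fold, and the edgeR adjusted p was 0.13. DESeq2 gave 0.51 with an adjusted p of 0.041. Without wild-type replicate 1 the log2 fold change was 0.34, and with the GC and length trend taken out it was 0.23 (edgeR adjusted p 0.29 and 0.19). Over all 16 alternatives it ran from 0.23 to 0.63. With no filter on low counts Tfeb was called (0.51, edgeR adjusted p 0.0128), in a fit that called 1303 of 27889 genes. The related factors Tfe3 and Mitf had log2 fold changes of 0.10 ± 0.10 and 0.21 ± 0.10 (edgeR adjusted p 0.62 and 0.33).

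The lysosomal membrane genes differed little. Lamp1 had 617.3, 615.3 and 627.4 CPM in the wild-type libraries, against 625.1, 595.9 and 634.5 CPM in those of the knock-in, with a log2 fold change of 0.00 ± 0.07 and a 95% interval of 0.90 to 1.11-fold. Lamp2, whose isoforms serve chaperone-mediated autophagy as well, lay at 149.4 to 163.8 CPM in wild type and 145.0 to 159.2 CPM in knock-in (log2 fold change -0.08). Mcoln1, the lysosomal calcium channel TRPML1, had 59.0, 65.8 and 67.9 CPM in the wild-type libraries, against 67.2, 67.6 and 67.3 CPM in those of the knock-in, at 0.07. Npc1, which moves cholesterol out of lysosomes, had a log2 fold change of 0.04 ± 0.09, and Rmc1 on the opposite strand shares 4.52% of its exon bases and had 42.6% as many counts, so the level of Npc1 is uncertain.

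Among the soluble lysosomal proteins, Gaa differed most. It encodes acid alpha-glucosidase, which degrades glycogen in lysosomes (chromosome 11, 119267887 to 119285454, plus strand). It had 151.0, 243.5 and 213.1 CPM in the wild-type libraries, against 279.1, 256.8 and 266.0 CPM in those of the knock-in. The knock-in libraries were close together and above all wild-type libraries, which themselves spread from 151.0 to 243.5 CPM. The log2 fold change was 0.40 ± 0.14, 1.32-fold with a 95% interval of 1.06 to 1.65-fold, and the edgeR adjusted p was 0.19. Without wild-type replicate 1 it was 0.22 (edgeR adjusted p 0.37), and with the GC and length trend taken out it was also 0.22 (edgeR adjusted p 0.24). Adding the brainstem markers to the model, which partly overlap with genotype, gave 0.22 (edgeR adjusted p 0.93). Over all 16 alternatives it ran from 0.22 to 0.55. With no filter on low counts Gaa was called (0.40, edgeR adjusted p 0.00802), in the fit that called 1303 of 27889 genes.

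The other soluble proteins had log2 fold changes between -0.01 and 0.03. Ctsl, the cysteine protease cathepsin L, had means of 175.3 ± 9.42 CPM in wild type and 174.9 ± 4.62 CPM in knock-in, and Hexa, which encodes part of a ganglioside-degrading enzyme, 51.3 ± 1.88 and 51.0 ± 2.19 CPM (SD, n = 3 each). Ctsa, the protective protein cathepsin A, and Npc2, the soluble cholesterol carrier that works with Npc1, had 98.1 and 100.3 CPM and 97.0 and 97.6 CPM in the 2 group means. Pltp overlaps 10.5% of the exon bases of Ctsa on the opposite strand and had 154% as many counts. Whether reads were counted by strand is not given in the sources used here, and the level of Ctsa is uncertain to that extent.

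**Figure D3:**
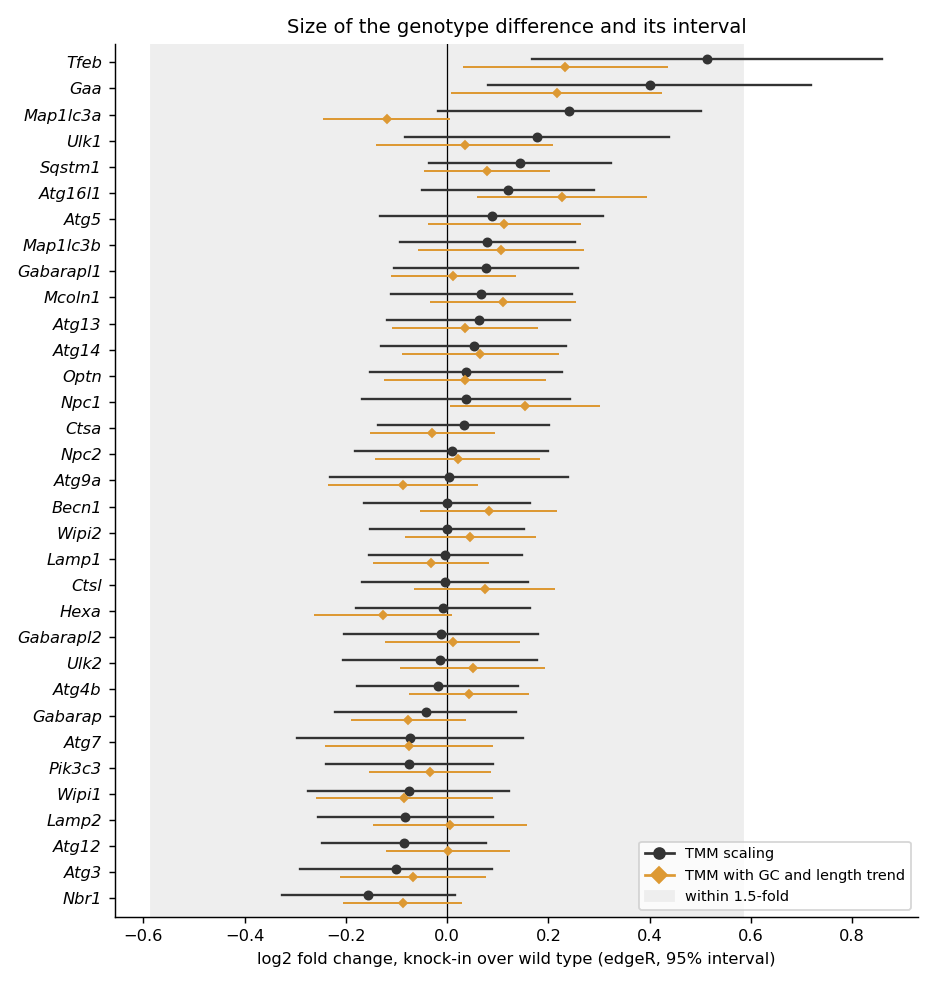
Fitted log2 fold change of each gene, knock-in over wild type, with its 95% interval from edgeR, under TMM scaling (black circles) and with a GC and length trend taken out of each library (orange diamonds). The grey band marks 1.5-fold in either direction: with TMM scaling only the intervals of Tfeb and Gaa leave it, and with the trend taken out both come to about 0.2 and Map1lc3a moves below 0.

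The log2 fold change, taken with its sign, went along with base composition. The 4 members richest in GC were Tfeb (63.2% of the longest transcript), Map1lc3a (63.1%), Gaa (59.5%) and Ulk1 (58%), and the same 4 had the highest log2 fold changes of the 33. In each of these 4, wild-type replicate 1 was the lowest of all 6 libraries, as it was in 12 members (36.4%) and in 24.1% of all tested genes. Across the members the log2 fold change had a Pearson r of 0.69 and a Spearman rho of 0.53 with GC content (n = 33 genes measured in the same 6 libraries, given as a description). Without the 2 genes richest in GC these were 0.54 and 0.43, and without wild-type replicate 1 they were 0.46 and 0.28.

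Over all tested genes the median log2 fold change was -0.05 in the 2996 genes above 42% and up to 46% GC, 0.11 in the 2894 genes above 54% and up to 58%, and 0.23 in the 1573 genes above 58%. Without wild-type replicate 1 these medians were -0.03, 0.05 and 0.12, and Map1lc3a, Tfeb and Gaa had 0.131, 0.335 and 0.215. Against the 0.23 of the genes above 58% with all 6 libraries, Map1lc3a at 0.24 lay near the median, and Tfeb at 0.51 and Gaa at 0.40 lay above it. That set has no upper limit of GC content. Its median may therefore differ from that of genes near Tfeb (63.2% GC) and Map1lc3a (63.1%). Taking out the trend removes the relation with GC content by its construction, so its absence afterwards shows nothing further. The log2 fold changes left in that fit were 0.23 ± 0.09 for Tfeb and 0.22 ± 0.09 for Gaa, lower than the 0.51 and 0.40 without it, and neither was called.

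**Figure D4:**
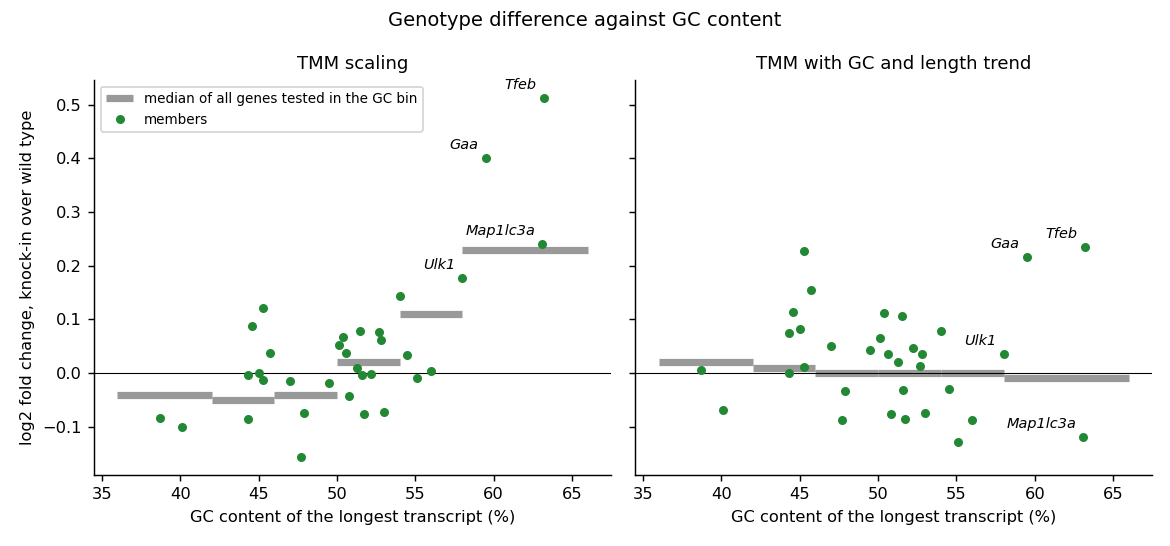
Log2 fold change of the 33 genes (green points) against the GC content of the longest transcript, under TMM scaling (left) and with a GC and length trend taken out of each library (right). Grey bars give the median of all tested genes in each GC bin, which reaches 0.23 above 58% GC on the left. On the right it lies within 0.02 of 0, which the removal of the trend itself brings about.

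Log2 fold changes of the 9 genes with CACGTG in a promoter ran from -0.10 to 0.40 with a median of 0.03, 5 above 0 and 4 below, and those of the 18 genes without it from -0.16 to 0.51 with a median of 0.00. No gene of either set was called. Lamp1, with 4 copies upstream, had 0.00, Mcoln1 0.07, Ctsa 0.03 and Atg3 -0.10.

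Further genes of the pathway were listed by function, 154 in 8 lists, and all were abundant enough to test. By edgeR none was called in any list, 21 had an unadjusted p under 0.05 (13.6%, 15 higher and 6 lower) beside 18.1% of all genes (1638 higher and 1379 lower), and the median log2 fold change was -0.01. DESeq2 called 3 of the 154, beside 5.59% of all genes, and limma-voom 0, beside 1.66%. The gene nearest to the threshold was Sort1, the sorting receptor sortilin, with 352.5, 385.1 and 358.9 CPM in the wild-type libraries, against 293.2, 307.7 and 278.5 CPM in those of the knock-in. The groups did not overlap, and the log2 fold change was -0.32 ± 0.08 (edgeR adjusted p 0.067). DESeq2 gave -0.32 with an adjusted p of 0.00628, and with the GC and length trend taken out edgeR gave -0.29 with an adjusted p of 0.0146.

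List by list, the medians stayed near 0. Other autophagy core genes had a median of 0.02 over 21 genes, and the largest difference there was that of Atg9b at 0.85 ± 0.38, with 0.92 to 1.81 CPM in the wild-type libraries, against 3.95, 1.28 and 2.42 CPM in those of the knock-in. Other cargo receptors had a median of 0.03 over 12, with Calcoco1 at 0.27. Control of mTORC1, AMPK and TFEB had 0.00 over 25, with Akt1s1, an mTORC1 subunit, at 0.44 ± 0.15. Genes of autophagosome fusion had -0.02 over 12, with the tethering subunit Vps16 at 0.18. Atg9b, Calcoco1, Akt1s1 and Vps16 were all lowest in wild-type replicate 1. Akt1s1 had 18.4 CPM there and 25.3 to 35.0 CPM in the other libraries.

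The V-ATPase, the proton pump that acidifies lysosomes, had a median of -0.05 over 18 genes. Its largest difference was in Atp6v0c, with wild-type replicate 1 far below the other libraries, at 38.4, 80.5 and 75.2 CPM in the wild-type libraries, against 77.6, 106.0 and 104.4 CPM in those of the knock-in. The log2 fold change was 0.57 ± 0.23 (edgeR adjusted p 0.23). Other hydrolases and activators had 0.00 over 40, with the nuclease gene Dnase2a at -0.36. Cathepsin B (Ctsb) and prosaposin (Psap), among the most abundant of them, had means of 1119 and 1063 CPM and 2491 and 2429 CPM. Other membrane genes had 0.01 over 18, with Slc29a3 at -0.29, and enzyme sorting genes had -0.04 over 8.

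Microglia are rich in lysosomes, and none of their 8 markers was called by edgeR: 1 had an unadjusted p under 0.05, the median log2 fold change was 0.00, and their CPM summed to 219 to 234 in wild type and 209 to 236 in knock-in. Astrocyte and Bergmann glia markers had 4 of 8 called, all lower in knock-in, and summed to 4319 to 4470 CPM in wild type and 3157 to 3683 CPM in knock-in. Their part in the values of the members was not tested.

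**Figure D5:**
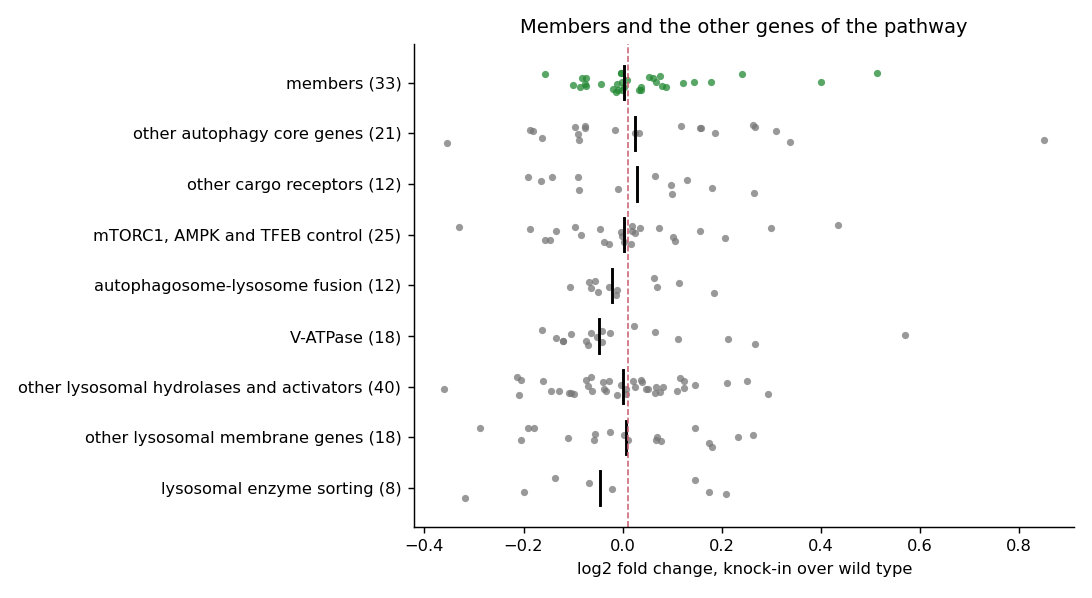
Log2 fold change, knock-in over wild type, of the 33 members (green) and of the genes of 8 further pathway lists (grey), with the median of each list as a black bar and that of all tested genes (0.01) as a dashed line. List medians lie between -0.05 and 0.03, and single genes reach from -0.36 (Dnase2a) to 0.85 (Atg9b).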

How the data were processed

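The deposited values are raw read counts per Ensembl gene, made with HTSeq 0.6.1 after TopHat2 2.0.14 and Bowtie2 2.1.0 on mm10, per the submitters' processing notes. Libraries were stranded and selected for polyadenylated RNA, per the labels' protocols. Which annotation was counted, and whether by strand, is not given in the sources used here. Symbols, coordinates, exon lengths and GC content came from GENCODE M21 (48349 of 48709 identifiers matched).

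Counts were tested in R 4.3.3 with edgeR 4.0.16: filterByExpr (minimum count 10, minimum total 15), TMM scaling, a quasi-likelihood F test on genotype alone, and Benjamini-Hochberg adjustment over all 16699 genes. The standard error is the absolute log2 fold change over the square root of F, and the 95% interval uses the test's degrees of freedom. The members and lists were chosen with earlier results of these data known. All members are named, and from each further list the called genes (up to 3) and the gene with the largest difference at a mean CPM of at least 1. Tfe3, Mitf, Ctsb, Psap, Neu1, Rragd, Atg2b and Tpcn1 were chosen after their values were seen.

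Alternatives covered scaling, filtering, DESeq2 1.42.0, limma-voom (limma 3.58.1), the replicate number as a block, a brainstem marker covariate, a lowess trend (span 0.3) over GC content and exon length per library, and leaving out each sample. Libraries of a group differed by more than sampling noise (chi-square per degree of freedom 14.01 to 30.21). The procedure was tested on simulated data.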

Additional observations from a re-analysis of the deposited data

How the results depend on the processing

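No member was called under 12 of 16 alternatives to the edgeR fit. These were both other scalings, the CPM filter, limma-voom, the brainstem covariate, the GC and length trend and the omission of each sample. A threshold of 0.1 on the adjusted p also gave 0. Tfeb and Gaa were called with no filter on low counts, 2 of 33 members beside 1303 of the 27889 genes tested in that fit. DESeq2 called Tfeb alone, 1 of 33 beside 934 of 16699 genes (5.59%). The replicate block and the GC and length trend together called Atg16l1 alone, 1 of 33 beside 1620 of 16699 genes. Of 528 member values under alternatives, 526 lay within the main 95% interval, and the other 2 were Map1lc3a with the trend, at -0.12 without and -0.12 with the block. In 22 members the sign changed under at least 1 alternative. These 71 values ran from -0.12 to 0.0822, none was called, and a sign change was counted as a reversal only outside the main interval.

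Further pathway genes, 0 of 154 at first, gave 1 call with library-size scaling (Neu1), 7 with no filter, 3 with DESeq2, 3 with the trend (Neu1, Tpcn1, Sort1), 1 at an adjusted p at or under 0.1, and 0 to 4 without single samples. The 4 (Rragd, Atg2b, Atg9b and Sort1) came without knock-in replicate 2. Over all genes the count of 318 of 16699 was 513 with library-size scaling and 1303 of 27889 with no filter. It was 934 with DESeq2, 3 with the brainstem covariate, 727 with the trend and 721 at an adjusted p at or under 0.1. Without single samples it was 39 to 858, the lowest without knock-in replicate 1 and the highest without knock-in replicate 2. The cause was not tested.

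The labels do not say that equal replicate numbers pair samples. Same-numbered samples had correlations of 0.05, 0.25 and 0.40 in their deviations from the group means, and wild-type replicate 1 correlated slightly better with knock-in replicate 2 (0.07). With the replicate block 2034 of all 16699 genes were called, beside 2 of 33 members and 15 of 154 further pathway genes. The 2 members were Tfeb at 0.53 (edgeR adjusted p 0.0119) and Gaa at 0.43 (edgeR adjusted p 0.038). With the trend added, 1620 genes, 1 member and 15 further pathway genes were called. The lowest count of any member in any library was 414, in Tfeb.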
